A study of Mus musculus with 48 samples.

Results

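Cardiomyocytes and blood vascular endothelial cells (BECs) of the heart were compared in the 4 control animals, with 1 library of each population from every animal, so that 8 of the 48 libraries of the series entered the comparison. The libraries were chosen by their labels alone, as control heart BECs or control cardiomyocytes, and were paired through the animal numbers 1, 5, 9 and 11. The animals were C57BL/6 mice carrying Prox1-eGFP, a knock-in that adds a green reporter to the lymphatic transcription factor gene Prox1, and their minipumps held vehicle where those of the treated animals held angiotensin II (angII) with or without a VEGFC variant. Per the labels, animals 1 and 5 were 9 and 8 months old, and animals 9 and 11 were both 16 months old. The study's methods give the age of such mice in weeks, so the unit of these ages is uncertain.

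The 2 populations were obtained in different ways. Hearts were digested with collagenase, and the cardiomyocytes were the pellet of a slow spin that was lysed directly, without a sort. BECs were sorted from the remaining cells by flow cytometry as live, CD45-negative, CD31-positive and eGFP-negative cells. All 4 cardiomyocyte libraries were sequenced in batch 3, whereas the BEC libraries of animals 1 and 9 were in batch 1 and those of animals 5 and 11 in batch 2. Population, isolation and sequencing batch therefore cannot be told apart in what follows, although each value can be set side by side in the 2 BEC batches. As the gate used CD31 (Pecam1), CD45 (Ptprc) and the Prox1 reporter, the levels of these genes are a check of the sort and not a result.

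Cardiomyocytes are the contractile cells of the myocardium, and their repeating sarcomeres of thick and thin filaments are driven by calcium released from the sarcoplasmic reticulum and fuelled largely by mitochondrial oxidation of fatty acids. Blood endothelial cells line every vessel between these muscle cells, take up fatty acids from the plasma and pass them on, and set vessel tone with nitric oxide, endothelin and prostaglandins. The populations signal to each other, for example through vascular endothelial growth factors from muscle and neuregulin from endothelium.

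Values are TPM, the share of a transcript among all transcripts of a library after correction for its length, scaled to a fixed total. They correct for length between genes, while a value depends on what the other transcripts of its library take up. Every log2 difference is the cardiomyocyte minus the BEC value of log2(TPM + 1), with its standard error (SE) and its adjusted p from limma over all genes tested, with the animal as a block. Values per library are given in the order of animals 1, 5, 9 and 11.

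The cardiomyocyte libraries were dominated by few transcripts. The 37 mitochondrially encoded genes took between 25.1% and 31.0% of all TPM in cardiomyocytes and between 2.70% and 4.24% in BECs. A further 13.0% to 16.7% in cardiomyocytes and 1.36% to 2.09% in BECs was assigned to 12 nuclear pseudogenes that resemble mitochondrial transcripts. The abundant Gm28437 and Gm10925 matched mt-Co3 and mt-Atp6 at 100% identity over 100% of their length. Reads of such sequences cannot be told apart, so this share may be mitochondrial in part or in whole. Between 13020 and 14057 genes reached 1 TPM in a cardiomyocyte library and between 15423 and 21913 in a BEC library. Libraries of 1 population correlated at 0.979 to 0.986 (cardiomyocytes) and 0.949 to 0.973 (BECs) across genes on the log2 scale, against 0.897 to 0.926 between the populations.

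The marker genes Myh6, Tnni3 and Pecam1 served to check the labels. Myh6, the alpha myosin heavy chain of heart muscle (GRCm38, chr14:54941921-54966927, minus strand), stood at 2615, 2859, 2596 and 2002 TPM in cardiomyocytes and at 3.17, 15.6, 17.1 and 7.45 TPM in BECs. Tnni3, cardiac troponin I (chr7:4518305-4524229, minus strand), stood at 3099.6, 5251, 4301 and 3173 TPM in cardiomyocytes and at 39.4, 71.5, 83.8 and 51.2 TPM in BECs. The populations did not overlap for either gene, with log2 differences of 7.94 (SE 0.30, limma adjusted p = 8.44e-07) for Myh6 and 6.01 (SE 0.12, limma adjusted p = 9.07e-08) for Tnni3. Pecam1, the endothelial adhesion molecule CD31 (chr11:106654217-106750628, minus strand), stood at 576, 871, 760.4 and 759 TPM in BECs, yet it was also at 153, 125, 134 and 139 TPM in the cardiomyocyte pellet. Every BEC library was above every cardiomyocyte library for Pecam1, so the labels held for all 8 libraries, and the endothelial signal of the pellet is described further on.

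Of the 15327 genes tested, 1685 (11.0%) were higher in cardiomyocytes and 10669 (69.6%) were higher in BECs on TPM. TPM adds up to the same total in every library, and the median log2 difference over all genes was -0.96. After median-of-ratios scaling, which divides each library by the median ratio of its genes to their geometric mean, the median was -0.09, and 3908 genes were higher in cardiomyocytes and 3560 in BECs. Cardiomyocytes thus held 13.6% of the calls on TPM and 52.3% after the other scaling. A gene is written below as higher in a population only where both scales gave that call, which was so for 1685 genes (11.0%) in cardiomyocytes and 3560 genes (23.2%) in BECs. These percentages are the background for every count of list members below, while a list's median log2 difference is to be read against -0.96. The 1685 genes are all those called on TPM, and the 3560 genes all those called after median-of-ratios scaling. The rule therefore keeps the stricter scale for each direction, and the call on the other scale adds no support.

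**Figure D1:**
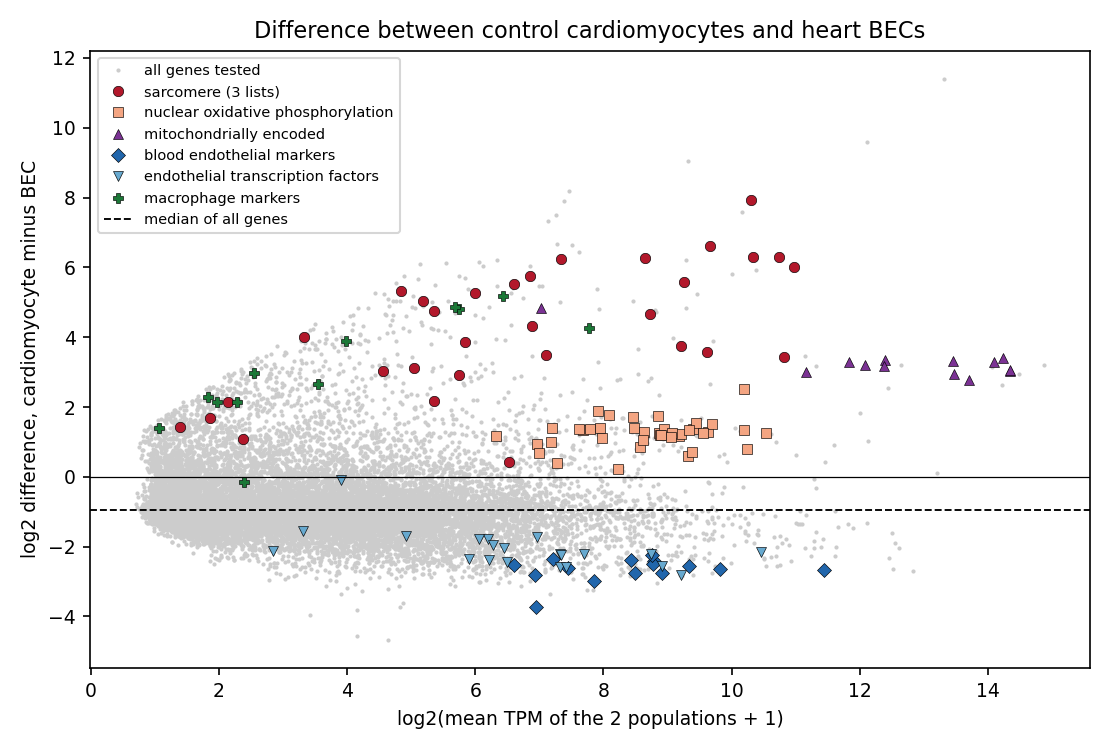
Log2 difference between control cardiomyocytes and heart BECs (y axis, log2(TPM + 1) scale) against mean level (x axis) for the 15327 genes tested (grey), with 6 gene groups in colour and the median of all genes at -0.96 as a dashed line. Sarcomere genes and mitochondrially encoded genes lie above 0, nuclear genes of oxidative phosphorylation form a band above 0, and the blood endothelial markers lie below the dashed line, while the macrophage markers, genes of neither population, lie mostly among the genes higher in the cardiomyocyte pellet.

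The largest differences towards cardiomyocytes were in contractile and hormone genes, and many of them were genes of the atria. Nppa, the precursor of atrial natriuretic peptide, led with 17705, 35639.6, 17198 and 10482 TPM in cardiomyocytes and 1.33, 11.4, 9.50 and 5.95 TPM in BECs, a log2 difference of 11.40 (SE 0.34, limma adjusted p = 2.47e-07). It was followed by Myl7, the atrial regulatory light chain (log2 difference 9.59, SE 0.25), Sln, the atrial calcium pump inhibitor sarcolipin (9.05, SE 0.27), Myh6, and Mybphl, a myosin binding protein (7.90, SE 0.23). Myl4, the atrial essential light chain (7.58), Chad, the matrix protein chondroadherin (7.50), Myl1, a skeletal muscle light chain (7.32), Nppb, the precursor of B-type natriuretic peptide (6.66), and Ckmt2, the sarcomeric mitochondrial creatine kinase (6.63), completed the 10 genes. Their adjusted p-values lay between 1.25e-07 and 3.95e-06. In Chad the cardiomyocyte libraries ran from 89.2 TPM in animal 9 to 592 TPM in animal 1, so its level varied among animals far more than that of Myh6.

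In the other direction the differences were smaller. Only 25 genes were higher in BECs by at least 3 log2 units, compared with 241 in cardiomyocytes. The unsorted pellets held a median of 13.9% to 19.8% of the BEC level of blood endothelial markers, as described below. BECs held a median of 1.54% to 1.95% of the pellet level of cardiomyocyte markers. The part of this signal in the contrast of 25 and 241 genes was not tested. Vwf, the platelet-tethering von Willebrand factor (chr6:125546774-125686679, plus strand), stood at 205, 331, 209.6 and 167 TPM in BECs and 19.0, 16.4, 12.7 and 15.7 TPM in cardiomyocytes, a log2 difference of -3.72 (SE 0.17, limma adjusted p = 1.32e-06). The only larger difference by the rule used here was that of Slfn5os (log2 difference -4.67, SE 0.27), annotated antisense to Slfn5, and as the libraries do not keep the strand its reads cannot be told apart from those of its partner. The remaining 8 genes lay between -3.60 (Sprr2a2) and -3.06 (Itpr2, an inositol trisphosphate receptor) and included Btnl9 (-3.35), the interferon-inducible GTPase Iigp1 (-3.24), the necroptosis kinase Ripk3 (-3.14) and the hormone gene Stc1 (-3.14). None of the 20 leading genes overlapped between the populations, which was part of the rule that chose them. Of all genes tested, 71.2% did not overlap.

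Genes of the sarcomere were higher in cardiomyocytes without exception, with 9 of 9 thick filament genes, 10 of 10 thin filament genes and 12 of 12 Z-disc genes called. The median log2 differences of the 3 lists were 4.66, 5.04 and 3.62. Tnnt2, cardiac troponin T, reached 2876, 4083, 3583 and 2899 TPM in cardiomyocytes against 34.5, 33.7, 69.8 and 35.8 TPM in BECs (log2 difference 6.30, SE 0.18, limma adjusted p = 2.47e-07). Actc1, cardiac alpha actin, reached 1905, 3515, 2863 and 1944 TPM against 18.2, 34.3, 49.5 and 27.4 TPM (log2 difference 6.30, SE 0.15, limma adjusted p = 1.53e-07). Both troponins and actin were therefore abundant in every pellet and detected at a low level in every BEC library.

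Among the thick filament genes Mybpc3, cardiac myosin binding protein C (log2 difference 5.75, SE 0.16), and Ttn, the giant spring protein titin (5.25, SE 0.17), followed Myh6. Myh7, the beta myosin heavy chain that is the slow form, was low in adult pellets at 19.5, 16.6, 8.71 and 26.9 TPM and between 0.05 and 0.16 TPM in BECs (log2 difference 3.99, SE 0.28). The ratio of Myh6 to Myh7 in cardiomyocytes was 134, 172, 298 and 74.4, so that the alpha form prevailed in all 4 libraries, with the lowest ratio in animal 11. Of the Z-disc genes, Tcap, the titin cap telethonin, was at 1369, 1926, 1728 and 1373 TPM in cardiomyocytes and 12.1, 15.0, 19.7 and 14.4 TPM in BECs (log2 difference 6.62, SE 0.12, limma adjusted p = 7.65e-08). The Z-disc genes Csrp3 (6.27, SE 0.18), Actn2 (6.23, SE 0.19) and the chaperone gene Cryab (3.74, SE 0.13) behaved alike in direction, whereas the log2 difference of Pdlim5 was just 0.42 (SE 0.12, limma adjusted p = 0.0111). Acta1, the skeletal muscle actin that adult hearts express at a low level, was the most variable of the abundant thin filament genes named here, at 44.8, 126, 33.1 and 229 TPM in cardiomyocytes and 3.27 to 7.12 TPM in BECs (log2 difference 3.85, SE 0.48, limma adjusted p = 0.000129).

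Promoter sequences were taken from RefSeq for GRCm38.p6, from 250 bases before to 50 bases after the annotated start, and 7 short motifs were searched on both strands in these 300-base windows. Windows were matched for 25 of the 31 sarcomere genes. The CArG box, the core motif bound by serum response factor, was in 19.4% of their 36 windows, compared with 1.63% of all 32851 windows, 1.40% of those of the genes tested and 2.11% of those of the genes higher in cardiomyocytes. The sarcomere genes that held it were Acta1, Actc1, Ldb3, Myl3, Myom1 and Nebl. In the same 36 windows the ETS motif was in 30.6%, the E box in 27.8% and the TATA box in 16.7%. The GATA motif was in 13.9%, the MEF2 box in 8.33% and the nuclear receptor half-site in 0%. In that order these motifs were in 30.6%, 16.3%, 13.6%, 11.2%, 1.86% and 4.72% of all windows. The windows of Actc1 and Myl7 are shown because each belongs to an abundant contractile gene and holds a CArG box, in capitals, that begins 47 bases before the start in Actc1 (chr2:114052826-114053125, minus strand) and 61 bases before it in Myl7 (chr11:5898733-5899032, minus strand, a gene of the atrial list and not of the 31). They were picked after the matches were known, and a match is a description of letters and not of binding.
Actc1: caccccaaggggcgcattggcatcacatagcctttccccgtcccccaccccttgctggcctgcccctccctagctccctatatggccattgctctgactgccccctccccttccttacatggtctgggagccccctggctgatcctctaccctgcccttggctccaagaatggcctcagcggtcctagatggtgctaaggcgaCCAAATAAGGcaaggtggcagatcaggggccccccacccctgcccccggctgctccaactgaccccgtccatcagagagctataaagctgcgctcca
Myl7: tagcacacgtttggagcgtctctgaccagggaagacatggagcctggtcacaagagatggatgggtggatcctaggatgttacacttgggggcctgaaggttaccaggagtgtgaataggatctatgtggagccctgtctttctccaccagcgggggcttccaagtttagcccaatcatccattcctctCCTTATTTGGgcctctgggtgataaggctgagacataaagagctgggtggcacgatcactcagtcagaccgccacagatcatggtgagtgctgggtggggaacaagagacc

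Srf itself, which encodes serum response factor, was at 38.9, 22.4, 29.8 and 12.5 TPM in cardiomyocytes and 45.7, 24.9, 19.8 and 31.8 TPM in BECs, and the populations overlapped. Its coactivator Myocd (myocardin) was at 7.69 to 13.3 TPM in cardiomyocytes and 1.01 to 1.94 TPM in BECs and was higher in cardiomyocytes (log2 difference 2.16). The MEF2 box was in 4.15% of the windows of the genes higher in cardiomyocytes, against 1.42% of those of the genes tested and 1.86% of all windows. The E box CAGCTG was in 19.7%, against 15.5% and 16.3% in the same order. The GATA motif AGATAA was in 7.60%, against 6.87% and 11.2%, the nuclear receptor half-site AAGGTCA in 4.53%, against 3.24% and 4.72%, and the TATA box TATAAA in 11.6%, against 8.04% and 13.6%. The share of these last motifs was thus above that of the genes tested and below that of all windows. Windows of this kind could be matched for 10570 genes tested, and no match means only that these letters were not in this window.

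Genes that mark the chambers gave an uneven picture of what the pellets and the BEC libraries held. Of the atrial list, 5 of the 6 genes tested were higher in cardiomyocytes, with a median log2 difference of 8.32, and of the ventricular list 3 of 4 were, with a median of 3.79. Myl7 was at 5624, 13202, 11373 and 5365 TPM in the pellets and Myl2, its ventricular counterpart, at 995, 1217, 1580.2 and 1967 TPM. The atrial light chain was thus the more abundant in every pellet, with a ratio of Myl7 to Myl2 of 5.65, 10.8, 7.20 and 2.73. In BECs the order was the opposite, as Myl2 was at 89.5, 89.3, 202 and 109.7 TPM and Myl7 at 2.37, 16.2, 20.7 and 9.16 TPM, and the ratio was between 0.026 and 0.181.

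Of 6 atrial genes tested, 5 were higher in the pellets, and Nr2f1, at 1.09 to 2.93 TPM in the pellets and 0.35 to 5.99 TPM in BECs, was not called. Tbx5, a T-box transcription factor of the atria and conduction system, was at 41.9, 45.1, 27.6 and 19.4 TPM in the pellets and was higher there (log2 difference 4.05, SE 0.24, limma adjusted p = 3.47e-06). Bmp10, a ligand made by the right atrium, was at 144, 120.5, 0 and 31.4 TPM in the pellets and listed at 0 in all 4 BEC libraries, and it was not tested because fewer than 4 libraries reached 1 TPM. The pellet of animal 9 therefore had abundant Myl7 and Nppa but no Bmp10. Among ventricular genes, Myl3 was at 568, 815, 727 and 1155 TPM in the pellets (log2 difference 4.66, SE 0.18), and the transcription factor genes Irx4 (0.90 to 2.18 TPM in the pellets) and Hey2 (2.77 to 5.42 TPM) were low. Hey2 was at 1.78 to 4.30 TPM in BECs, where the populations overlapped.

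**Figure D2:**
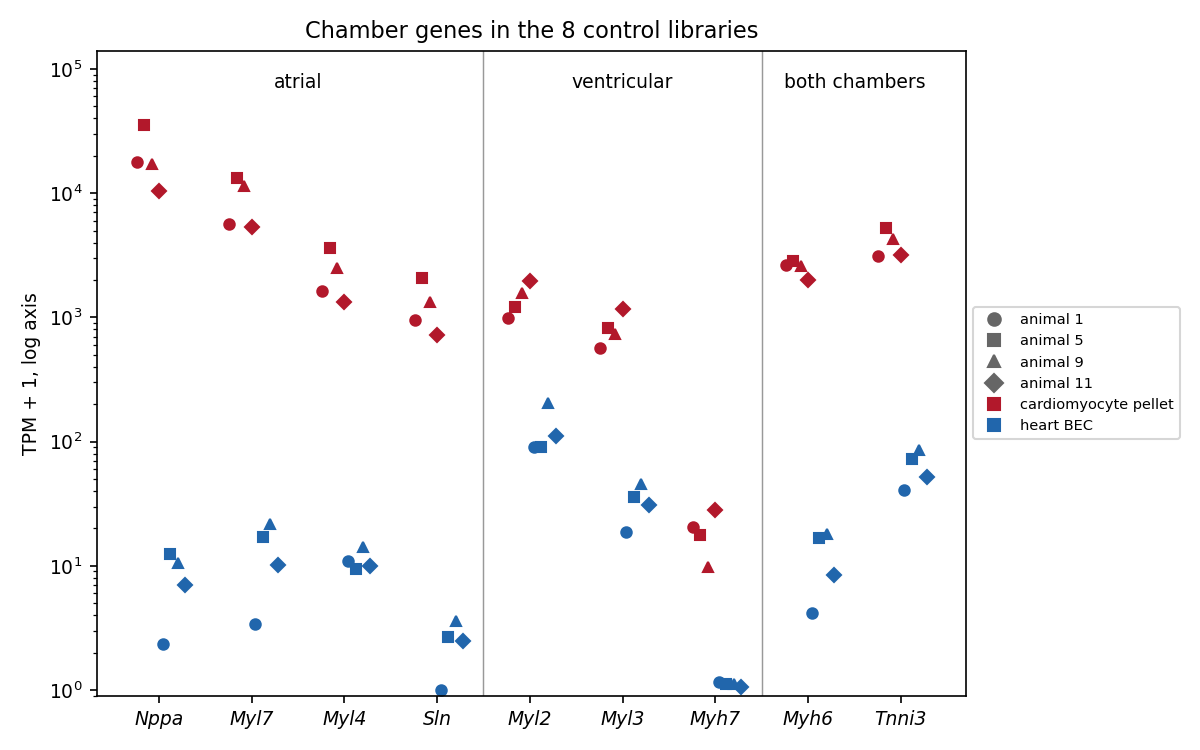
TPM + 1 (log y axis) of 4 atrial genes, 3 ventricular genes and 2 genes of both chambers in each of the 8 control libraries, with symbols for animals and colours for populations. In the cardiomyocyte pellets Myl7 lies above Myl2 in all 4 animals, while in BECs Myl2 lies above Myl7 in all 4.

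Calcium handling genes were higher in cardiomyocytes for 13 of 15 members, with a median log2 difference of 2.26. Pln, the pump regulator phospholamban, was at 389.7, 595, 469.5 and 427 TPM against 11.7, 15.3, 17.3 and 18.8 TPM (log2 difference 4.81, SE 0.14, limma adjusted p = 2.47e-07). Atp2a2, the reticulum calcium pump, was at 1324, 855, 1432 and 477 TPM against 69.6, 77.3, 52.7 and 42.5 TPM (log2 difference 3.97, SE 0.21, limma adjusted p = 2.31e-06). The pump thus varied more than its regulator among the pellets, and animal 11 had the lowest level. Casq2, the store protein calsequestrin (2.82, SE 0.12), Ryr2, the release channel (2.18, SE 0.24), and S100a1 (1.15, SE 0.15) had smaller log2 differences. The exceptions were Camk2d (-0.43 on TPM and 0.61 after median-of-ratios scaling) and Fkbp1b (-0.59 and 0.25), whose direction depended on the scaling.

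Of 16 genes of membrane currents, 12 were tested, 8 were higher in cardiomyocytes and 2 in BECs. Kcnh2, a delayed rectifier potassium channel, was at 30.8, 34.3, 30.8 and 26.4 TPM against 0.51, 0.50, 0.12 and 0.11 TPM (log2 difference 4.60, SE 0.18, limma adjusted p = 9.77e-07). Kcnj3, a channel subunit opened by acetylcholine in the atria (4.12, SE 0.21), and Atp1b1, a sodium pump subunit (3.20, SE 0.15), were also higher in cardiomyocytes. Kcna5, a potassium channel gene, went the other way, at 55.1, 91.1, 77.3 and 86.7 TPM in BECs and 16.3, 17.8, 16.5 and 19.1 TPM in cardiomyocytes (log2 difference -2.07, SE 0.14, limma adjusted p = 5.18e-06).

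At the intercalated disc, the junction that joins cardiomyocytes end to end, the members divided. Cdh2, N-cadherin (log2 difference 2.73, SE 0.22), Dsp, desmoplakin (2.86, SE 0.21), and 6 more of the 13 genes were higher in cardiomyocytes. Gja1, the main gap junction protein of ventricular muscle, was instead at 160.5, 151, 115 and 115 TPM in cardiomyocytes and at 491, 467, 355 and 569.9 TPM in BECs (log2 difference -1.78, SE 0.14, limma adjusted p = 1.11e-05). Jup, plakoglobin (-1.82, SE 0.12), and Ctnna1, an alpha catenin (-1.39, SE 0.13), were higher in BECs too, and endothelial junctions also contain both. Of 14 endothelial junction genes, 10 were higher in BECs, with a median log2 difference of -1.93. Cldn5, the tight junction claudin of endothelium, was at 687, 581, 592 and 1012 TPM in BECs and 186, 118, 129.8 and 165 TPM in cardiomyocytes (log2 difference -2.24, SE 0.13, limma adjusted p = 3.15e-06). Esam (-2.54, SE 0.11), Jam2 (-2.31, SE 0.11) and Cdh5, VE-cadherin (-2.52, SE 0.18), gave similar values. Gja5, a connexin of both arterial endothelium and atrial muscle, was the only member higher in cardiomyocytes, by a log2 difference of 0.38 (SE 0.14, limma adjusted p = 0.0374), and without animal 1 this was 0.29 with an adjusted p of 0.107, without animal 5 0.41 with 0.0677, and without animal 9 0.30 with 0.165.

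Genes of oxidative metabolism were higher in cardiomyocytes almost throughout. All 13 mitochondrially encoded protein genes were, with a median log2 difference of 3.21, and mt-Co2, a cytochrome oxidase subunit, was at 36463, 32945, 38669 and 40884 TPM against 3080.2, 4234, 5363 and 5509.8 TPM (log2 difference 3.07, SE 0.17, limma adjusted p = 2.81e-06). Of 40 nuclear genes of oxidative phosphorylation, 39 were higher, all but Ndufa8, with a median of 1.27. Atp5b, a subunit of ATP synthase, was at 1788, 2683, 2115 and 1861 TPM against 799.6, 915, 875 and 871 TPM (log2 difference 1.27, SE 0.12, limma adjusted p = 2.79e-05). The nuclear genes were thus about as far from the median of all genes as the 18 genes of fatty acid oxidation, all 18 of which were higher with a median of 1.19, and the 18 genes of the TCA cycle, 15 of which were higher with a median of 0.94.

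Within fatty acid oxidation, Cpt1b, the muscle form of the carnitine palmitoyltransferase that admits fatty acids to mitochondria, was at 64.0, 78.9, 58.8 and 47.2 TPM in cardiomyocytes and 0, 0.37, 1.29 and 1.75 TPM in BECs (log2 difference 5.18, SE 0.31, limma adjusted p = 3.83e-06). Etfb (1.40, SE 0.14), Acaa2 (1.41, SE 0.14) and Hadhb (1.21, SE 0.10), which act in electron transfer and in the beta-oxidation steps, had smaller log2 differences and reached 144 TPM, 92.2 TPM and 106 TPM or more in every BEC library. Mdh2 (1.11, SE 0.13), Sdhb (1.44, SE 0.15) and Idh2 (1.62, SE 0.14) stood for the TCA cycle. Glycolysis was mixed, as 8 of 17 genes were higher in cardiomyocytes and Pfkl, the liver form of phosphofructokinase, was higher in BECs at 82.4, 113, 85.6 and 90.7 TPM against 36.1, 37.0, 27.5 and 30.3 TPM (log2 difference -1.48, SE 0.12, limma adjusted p = 1.39e-05). The widely expressed enzymes Aldoa (0.67, SE 0.11) and Gapdh (0.60, SE 0.14) differed little, whereas the muscle forms Pfkm (2.89, SE 0.17) and Eno3 (5.00, SE 0.21) differed strongly. After median-of-ratios scaling alone, 15 of the 17 genes were higher in cardiomyocytes.

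**Figure D3:**
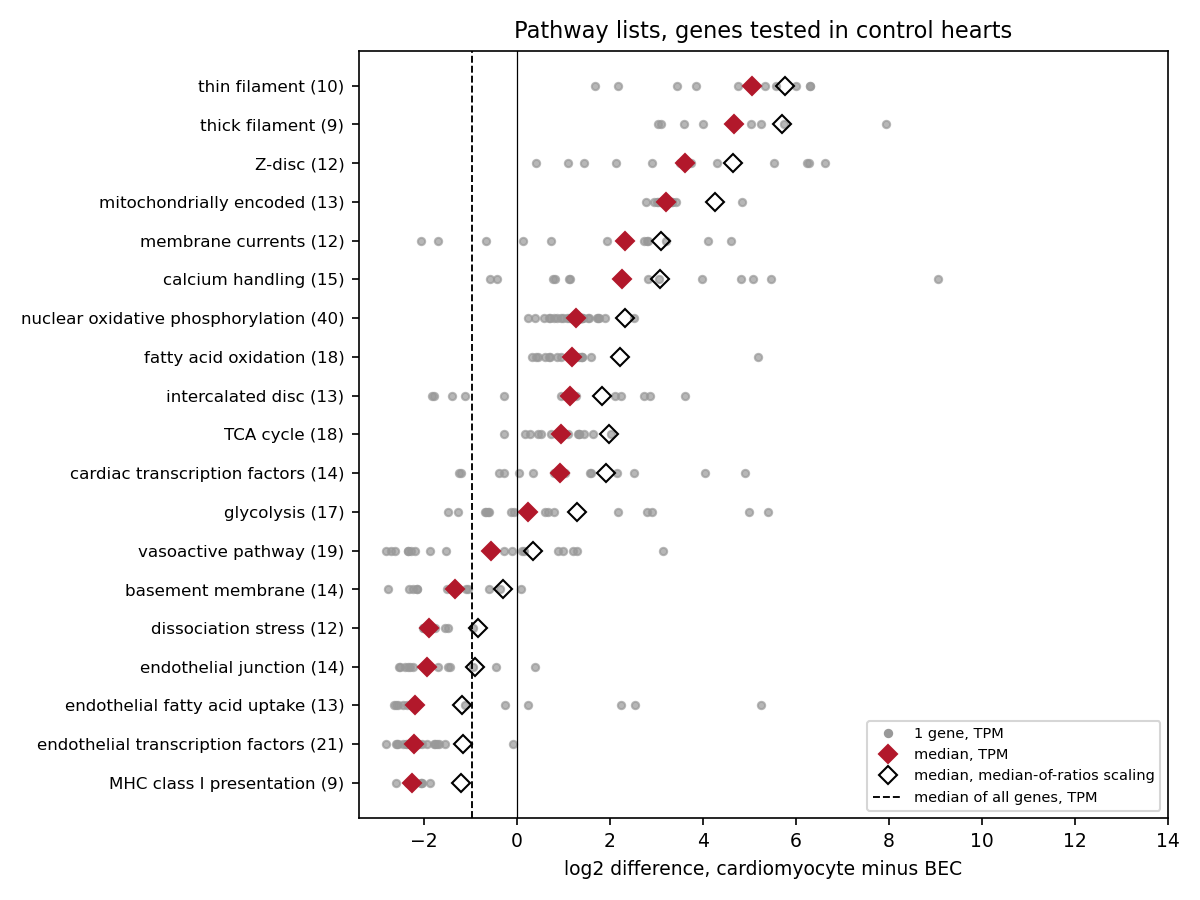
Log2 difference, cardiomyocyte minus BEC, of each gene tested (grey points) in 19 pathway lists, with the list median on TPM (red), after median-of-ratios scaling (open) and the median of all genes on TPM (dashed, at -0.96). Sarcomere lists lie farthest to the right with medians of 3.62 to 5.04, nuclear genes of oxidative metabolism have medians of 0.94 to 1.27, and 4 endothelial lists (fatty acid uptake, transcription factors, junction and basement membrane) have medians to the left of the dashed line.

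The uptake of fatty acids showed a division between the cell types. Fabp4, the endothelial and adipose fatty acid binding protein, was at 8213, 9172, 12282.5 and 10632 TPM in BECs and 1599.8, 1290.1, 1904 and 1605 TPM in cardiomyocytes (log2 difference -2.65, SE 0.13, limma adjusted p = 1.79e-06). Fabp3, the heart form, was at 1083, 1744, 1359 and 1325 TPM in cardiomyocytes and 26.1, 34.6, 47.1 and 34.0 TPM in BECs (log2 difference 5.25, SE 0.14, limma adjusted p = 1.84e-07). The 2 forms thus had opposite directions with no overlap. The scavenger receptor gene Cd36 (-2.26, SE 0.12) and Gpihbp1 (-2.46, SE 0.11), which carries lipoprotein lipase across the endothelium, were higher in BECs, as were 7 of the 13 list members tested in all. Lpl, the lipase itself, was at 370.04, 438, 415 and 376 TPM in cardiomyocytes and 336, 384, 269 and 386 TPM in BECs, a log2 difference of 0.23 (SE 0.13, limma adjusted p = 0.122) that became 1.28 after median-of-ratios scaling.

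Pairs of related genes with a striated muscle form and a widely expressed or endothelial form allow a comparison inside each library, in which a common scaling factor drops out. The muscle form was higher in cardiomyocytes in all 25 pairs examined and the other form was higher in BECs in 8. The share of the muscle form in the TPM of both did not overlap between populations in 24 pairs. Of all single genes tested, 71.2% did not overlap in TPM, and no such background was made for shares of pairs. As the pairs were picked as muscle and other forms, these counts are descriptions. The share of the muscle form was 74.6% to 82.7% in cardiomyocytes and 1.93% to 3.68% in BECs for the cytochrome oxidase subunit pair Cox6a2 and Cox6a1. For Cox7a1 and Cox7a2 it was 60.2% to 64.6% against 7.29% to 9.64%, and for the glucose transporters Slc2a4 and Slc2a1 it was 77.6% to 86.9% against 6.68% to 17.0%. The mean share of the muscle form was above 50% in 18 pairs in cardiomyocytes and in 3 pairs in BECs. The 3 were Pygm and Pygb, Atp2a2 and Atp2a3, and Ckmt2 and Ckmt1, the last at BEC means of only 2.79 and 1.69 TPM. Several genes counted here as muscle forms were abundant in BECs. The highest BEC means were those of Tpm1 (305 TPM), Slc25a4 (216 TPM), Cfl2 (78.0 TPM), Ldhb (76.2 TPM) and Atp2a2 (60.5 TPM).

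The pairs also show how far the pellets were from holding the muscle form alone. Cav3, the muscle caveolin, made up 3.59% to 6.29% of the caveolin pair in cardiomyocytes, because Cav1, the abundant endothelial form, was at 496, 424, 492 and 509.6 TPM there and at 1936, 2471, 2519 and 2736 TPM in BECs. The share of Fabp3 against Fabp4 was 40.4% to 57.5% in cardiomyocytes and 0.32% to 0.38% in BECs. Actb, cytoplasmic actin, was at 3209, 2715, 2425 and 3046 TPM in cardiomyocytes and 9527, 9623, 7420.2 and 8385 TPM in BECs (log2 difference -1.62, SE 0.13), and Actc1 held 37.2% to 56.4% of that pair in cardiomyocytes. The creatine kinase pair Ckm and Ckb gave 62.7% to 77.8% against 4.52% to 16.7%. The glycogen phosphorylase pair Pygm and Pygb was the exception, with 57.6% to 68.0% in cardiomyocytes and 55.3% to 68.7% in BECs, although both genes were higher in cardiomyocytes (log2 differences 1.82 and 1.74).

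**Figure D4:**
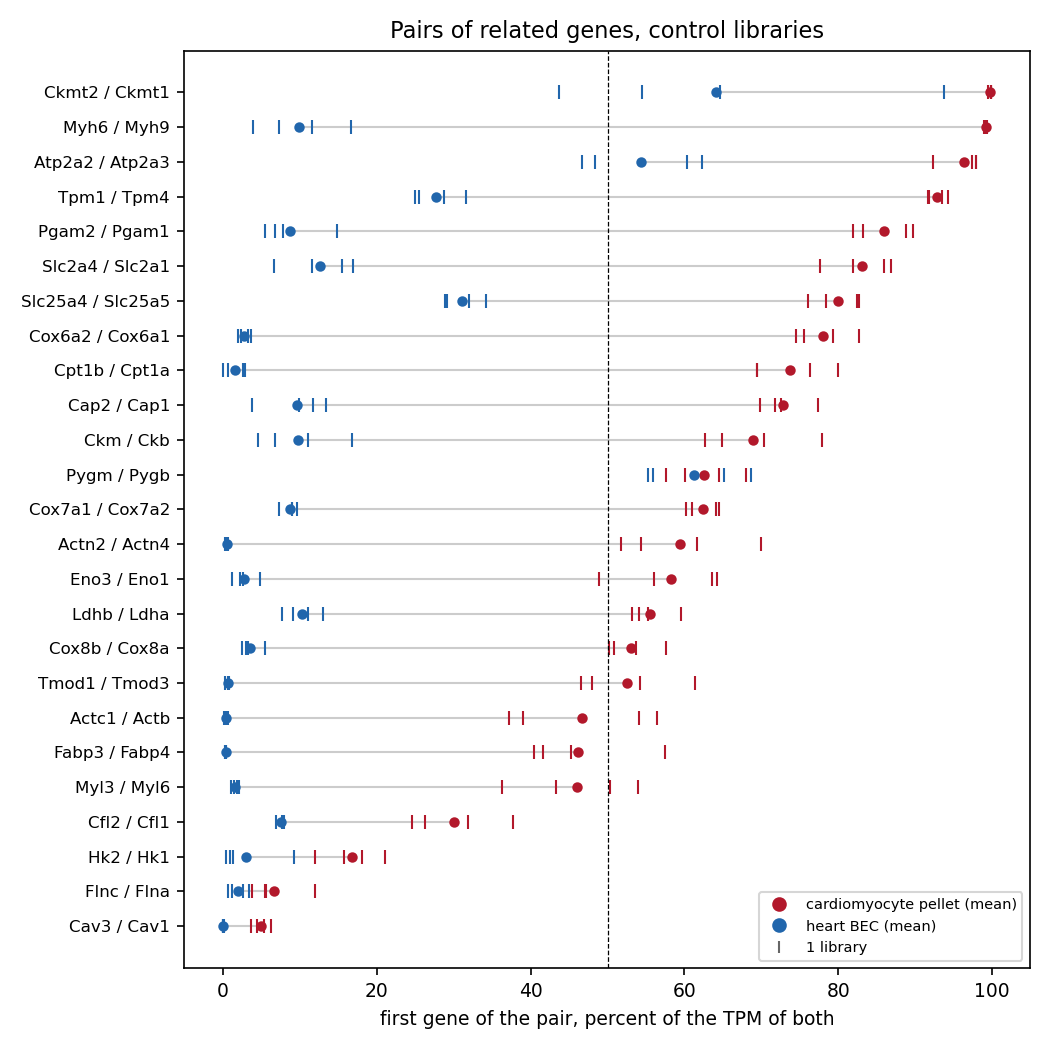
Share of the striated muscle form (first gene named) in the TPM of both genes of 25 pairs, in percent, with 1 tick per library, dots for the means of 4 libraries, and a dashed line at 50%. The populations are separate in 24 pairs, with Pygm / Pygb as the exception, and in the caveolin pair both populations lie below 50%.

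Transcription factors divided along the same line. Of 14 cardiac factors tested, 8 were higher in cardiomyocytes. Nkx2-5, a homeobox factor of cardiac muscle, was at 48.6, 71.0, 38.2 and 32.5 TPM against 0, 0.68, 1.98 and 0.16 TPM (log2 difference 4.91, SE 0.30, limma adjusted p = 4.30e-06). Gata4, which is also expressed in endocardium and fibroblasts, was at 50.3, 45.6, 33.5 and 36.8 TPM against 27.7, 32.0, 20.3 and 15.9 TPM (log2 difference 0.80, SE 0.14, limma adjusted p = 0.000911). Ppargc1a, the coactivator of mitochondrial genes, had a log2 difference of 2.53 (SE 0.26). Mef2a was at 52.7 to 77.6 TPM in cardiomyocytes and 121 to 172 TPM in BECs and was higher in BECs on TPM only (log2 difference -1.25, and -0.20 after median-of-ratios scaling).

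Of 21 endothelial transcription factors tested, 19 were higher in BECs, with a median log2 difference of -2.21. Sox17, a SOX factor of arterial endothelium, was at 1009, 985, 924 and 1231 TPM in BECs and 178, 101, 147 and 167 TPM in cardiomyocytes (log2 difference -2.82, SE 0.14, limma adjusted p = 1.68e-06). Klf2, which responds to shear stress (-2.16, SE 0.25), Tcf15, a factor of capillary fatty acid uptake (-2.56, SE 0.17), Sox18 (-2.21, SE 0.14), Ets1 (-2.23, SE 0.15) and Erg (-1.68, SE 0.20) were higher in BECs. Nr2f2, the venous factor, was at 10.4, 15.7, 18.2 and 12.7 TPM in BECs and 18.9, 11.9, 15.5 and 8.39 TPM in cardiomyocytes, and its populations overlapped.

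The promoters of the 15 blood endothelial markers were examined for the core of the motif of ETS factors, to which Ets1 and Erg belong. Windows were matched for 10 of the 15 genes, and the letters CAGGAA were in 53.8% of their 13 windows, compared with 30.6% of all windows, 26.9% of those of the genes tested, 28.9% of those of the genes higher in BECs and 30.6% of the sarcomere windows. In the endothelial transcription factors the letters were in 22.2% of 18 windows. In the nuclear genes of oxidative phosphorylation they were in 40.6% of 32 windows. The blood endothelial markers that held the letters were Egfl7, Emcn, Eng, Robo4, Tek and Tie1. In the same 13 windows the E box was in 30.8%, the TATA box in 15.4%, and the CArG and MEF2 boxes in 0%. The GATA motif and the nuclear receptor half-site were each in 7.69%. The MEF2 box was in 11.1% of the 18 windows of the endothelial transcription factors. The windows of Egfl7, a vessel matrix protein (chr2:26580833-26581132, plus strand), and Tek, the angiopoietin receptor (chr4:94739039-94739338, plus strand), are shown because each holds the letters, or their reverse complement, 2 times. In capitals, they begin 90 and 48 bases before the start in Egfl7 and 89 and 59 bases before it in Tek. The choice of these windows followed the matches, as above. Egfl7 had 3 windows, of which the first that held the letters is shown, while Tek had 1.
Egfl7: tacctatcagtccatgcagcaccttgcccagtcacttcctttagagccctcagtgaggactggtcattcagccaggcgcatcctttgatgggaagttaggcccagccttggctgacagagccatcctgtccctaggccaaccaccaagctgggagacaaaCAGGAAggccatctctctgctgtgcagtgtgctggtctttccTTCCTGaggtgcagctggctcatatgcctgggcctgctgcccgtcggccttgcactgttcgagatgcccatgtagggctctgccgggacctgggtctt
Tek: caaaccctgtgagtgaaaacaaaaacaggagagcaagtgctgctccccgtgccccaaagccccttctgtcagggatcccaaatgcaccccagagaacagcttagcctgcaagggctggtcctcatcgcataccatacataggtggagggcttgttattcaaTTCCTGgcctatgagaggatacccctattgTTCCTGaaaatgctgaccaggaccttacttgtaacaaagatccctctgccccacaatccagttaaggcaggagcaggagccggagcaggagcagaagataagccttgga

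BECs also carried higher levels of genes for antigen presentation and for the vessel wall. All 9 MHC class I presentation genes were higher in BECs with a median log2 difference of -2.25. B2m, the invariant chain, was at 5135, 4789, 6654 and 4304 TPM in BECs and 1133, 1002, 1226 and 903 TPM in cardiomyocytes (log2 difference -2.28, SE 0.11, limma adjusted p = 1.79e-06), and H2-D1 (-2.27, SE 0.11) and H2-K1 (-2.35, SE 0.12) were close to it. Of 14 basement membrane genes, 6 were higher in BECs on both scales and 12 on TPM alone. Col4a1, a type IV collagen chain, was at 600.5, 1151, 843 and 945 TPM in BECs and 206, 176, 157 and 193 TPM in cardiomyocytes (log2 difference -2.24, SE 0.18, limma adjusted p = 1.18e-05), and Hspg2, perlecan, had a log2 difference of -2.78 (SE 0.23).

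In the vasoactive list, 9 of 19 genes tested were higher in BECs and 5 in cardiomyocytes. Nos3, endothelial nitric oxide synthase, was at 264, 350.2, 270.4 and 315 TPM in BECs and 56.4, 40.6, 45.2 and 50.3 TPM in cardiomyocytes (log2 difference -2.62, SE 0.14, limma adjusted p = 2.66e-06). Ptgs1, the constitutive cyclooxygenase (-2.82, SE 0.13), Ednrb, the endothelin receptor of endothelium (-2.35, SE 0.10), and the adrenomedullin receptor genes Calcrl (-2.71, SE 0.14) and Ramp2 (-2.27, SE 0.10) were higher in BECs. Adrb1, the main beta receptor of heart muscle, was at 3.13, 1.96, 4.23 and 1.28 TPM in cardiomyocytes and 1.16, 1.53, 0.42 and 0.18 TPM in BECs. Its log2 difference was 1.00 (SE 0.30, limma adjusted p = 0.0135), or 0.70 (adjusted p = 0.0801) without animal 9.

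Ligands and receptors of signalling between the 2 populations were then followed as pairs. The cardiomyocyte side is the unsorted pellet, which also held fibroblast, smooth muscle, pericyte and macrophage markers, as described below. Which of its cells held a given ligand or receptor transcript was not tested. Of 22 ligand genes tested, 6 were higher in cardiomyocytes and 9 in BECs, and of 19 receptor genes 4 and 12. Vegfb, a growth factor that binds Flt1, was at 118, 108, 134 and 63.7 TPM in cardiomyocytes and 16.7, 12.1, 14.7 and 10.5 TPM in BECs (log2 difference 2.85, SE 0.14, limma adjusted p = 1.68e-06), and Flt1 was at 393, 423, 353 and 468 TPM in BECs and 65.4, 41.8, 48.7 and 47.7 TPM in cardiomyocytes (log2 difference -2.99, SE 0.14, limma adjusted p = 1.50e-06). Angpt1, the ligand of Tek, was likewise higher in cardiomyocytes (2.54, SE 0.30) and Tek in BECs (-2.36, SE 0.12). Vegfa, the ligand of Kdr, was at 44.99, 49.99, 39.5 and 40.04 TPM in cardiomyocytes and 34.0, 55.1, 33.3 and 35.0 TPM in BECs, and did not pass the test (log2 difference 0.17, SE 0.13, limma adjusted p = 0.236), although it was 1.20 after median-of-ratios scaling.

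In the other direction, Nrg1, neuregulin, was at 11.5, 15.6, 6.99 and 6.07 TPM in BECs and 0.43, 1.62, 0.43 and 1.11 TPM in cardiomyocytes (log2 difference -2.50, SE 0.26, limma adjusted p = 4.83e-05). Its receptor genes were low in the pellets, with Erbb4 at 0.99 to 2.38 TPM (not tested) and Erbb2 at 6.07 to 7.13 TPM, against 12.3 to 17.4 TPM of Erbb2 in BECs. Edn1, endothelin, was higher in BECs (-1.87, SE 0.13) and its receptor gene Ednra in cardiomyocytes (1.20, SE 0.18), where Ednra was at 14.0, 14.5, 13.7 and 16.8 TPM. Pdgfb (-2.06, SE 0.21) and its mural cell receptor gene Pdgfrb (0.70, SE 0.16) had the same arrangement, and Pdgfrb is also a marker of the pericytes described below.

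For other pairs both partners were higher in BECs, namely Vegfc and Flt4, Apln (-2.39, SE 0.17) and Aplnr (-2.42, SE 0.15), Dll4 (-2.62, SE 0.13) and Notch1 (-2.61, SE 0.19), Adm and Calcrl, and Kitl (-2.53, SE 0.17) and Kit (-2.21, SE 0.22). Vegfc, a lymphatic growth factor, was at 121, 91.5, 135 and 123 TPM in BECs and 25.7, 10.1, 21.9 and 16.2 TPM in cardiomyocytes (log2 difference -2.67, SE 0.15, limma adjusted p = 3.16e-06). The natriuretic peptides were the counterpart, as Nppa and Nppb were higher in cardiomyocytes while their receptor gene Npr1 was at 23.3, 31.0, 29.7 and 25.3 TPM in BECs and 9.22, 5.95, 6.97 and 7.96 TPM in cardiomyocytes (log2 difference -1.74, SE 0.19, limma adjusted p = 5.66e-05). Igf1 and Fgf1 were higher in cardiomyocytes (1.12, SE 0.35, and 2.10, SE 0.24), but the Igf1 level of the BEC library of animal 1, 29.4 TPM, exceeded all 4 cardiomyocyte libraries, and its adjusted p was 0.0631 without animal 5, 0.0717 without animal 9 and 0.0599 without animal 11. The receptor gene Fgfr1, called higher in cardiomyocytes (log2 difference 0.45, SE 0.17, limma adjusted p = 0.037), had adjusted p-values of 0.164 without animal 9, 0.142 without animal 11 and 0.114 without the animal block, and its populations overlapped.

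Because the pellet was not sorted, marker lists of other heart cells were read in all 8 libraries. Macrophage markers were the clearest case, with 11 of 12 higher in the pellet and a median log2 difference of 2.81. Their summed level was 750 to 977 TPM in the pellets and 30.0 to 45.5 TPM in BECs, from which CD45-positive cells had been gated out. C1qb, a complement gene of tissue macrophages, was at 136, 172, 171 and 186 TPM against 4.18, 2.75, 3.82 and 3.87 TPM (log2 difference 5.17, SE 0.15, limma adjusted p = 2.47e-07), and Lyz2 (4.27, SE 0.17) and Csf1r (3.89, SE 0.26) followed. The exception was Ptprc itself, at 3.15 to 4.44 TPM in the pellets and 3.09 to 6.24 TPM in BECs. No macrophage marker was at 0 in all libraries of a population.

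Mural cell markers were also present. Of 10 pericyte and smooth muscle markers, 7 were higher in the pellet, and the sum was 1033 to 1848 TPM there and 326 to 421 TPM in BECs. Acta2, smooth muscle actin, was at 944, 510.1, 709 and 829.6 TPM against 85.9, 108, 98.9 and 113 TPM (log2 difference 2.84, SE 0.18, limma adjusted p = 4.22e-06), with Cnn1 (4.90, SE 0.16) and Tagln (2.42, SE 0.17) alongside. The pericyte gene Rgs5 was instead at 91.0 to 116 TPM in the pellets and 81.8 to 109 TPM in BECs (log2 difference 0.04, SE 0.12). Erythroid markers were higher in the pellet in 5 of 5 genes tested, with a sum of 9858 to 20378 TPM against 5221 to 7980 TPM, and Hba-a2, an alpha globin, was at 4747, 4904, 8990.3 and 5469 TPM against 2513, 2421, 3656 and 2959.6 TPM (log2 difference 1.03, SE 0.13, limma adjusted p = 0.000138). Red cells were lysed in the sorted fraction only, so globin cannot be told apart from this step.

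Fibroblast markers depended on 1 BEC library. Their sum was 9496, 8326, 7090.1 and 8259 TPM in the pellets and 13327, 2069.6, 1407 and 1232 TPM in BECs, so that the BEC library of animal 1 exceeded every pellet and the other 3 BEC libraries were below all of them. The largest part of the sum was Gsn, at 5901, 5392, 4593 and 5394 TPM in the pellets and 9158, 1088, 716 and 670 TPM in BECs. Dcn, decorin, was at 2315, 1906, 1718 and 1920 TPM in the pellets and 3024, 699.9, 533 and 423 TPM in BECs (log2 difference 1.23, SE 0.35, limma adjusted p = 0.0109). Col1a1 was at 131, 90.9, 63.4 and 75.7 TPM in the pellets and 53.3, 12.6, 7.51 and 4.54 TPM in BECs. For Col1a1 the BEC library of animal 1 was thus the highest of the BECs but below every pellet. With all animals 7 of 9 markers were higher in the pellet, with a median log2 difference of 1.84, and without animal 1 the count on TPM was 9 of 9 with a median of 2.66. Between the 2 BEC batches the count on TPM was 3 of 9 in batch 1 (animals 1 and 9) and 9 of 9 in batch 2 (animals 5 and 11).

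Lists of rarer cells were close to the floor. Lymphocyte markers summed to 5.72 to 9.30 TPM in the pellets and 3.05 to 13.0 TPM in BECs, and none of the 4 tested was called on both scales. On TPM alone Ms4a1 was higher in BECs (log2 difference -1.21), and after median-of-ratios scaling alone Cd79a (0.94) and Nkg7 (1.22) were higher in the pellet. Neutrophil markers summed to 3.85 to 25.1 TPM against 1.26 to 5.85 TPM, with S100a8 and S100a9 the 2 tested and both higher in the pellet. For S100a8 the limma adjusted p was 0.0167, or 0.065 without the animal block. Platelet markers summed to 115 to 137 TPM against 71.6 to 169.7 TPM, and went both ways, since Pf4 was higher in the pellet (log2 difference 0.95, SE 0.21) and Ppbp (-1.92, SE 0.23) and Itga2b (-1.58, SE 0.21) were higher in BECs. Glial markers, among them the myelin gene Mbp (2.30, SE 0.25), were higher in the pellet in 3 of 4 genes tested, with sums of 141 to 192 TPM against 97.1 to 228 TPM, most of it from the widely expressed gene Pmp22. Mesothelial markers summed to 39.7, 12.3, 3.23 and 4.57 TPM in the pellets, highest in animals 1 and 5, while of the list only Wt1 was called, and it was higher in BECs (-2.20, SE 0.19). Adipocyte markers summed to at most 6.22 TPM in a pellet and 0.31 TPM in a BEC library, where Cidec and Cfd were listed at 0 in all 4, and none was tested.

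**Figure D5:**
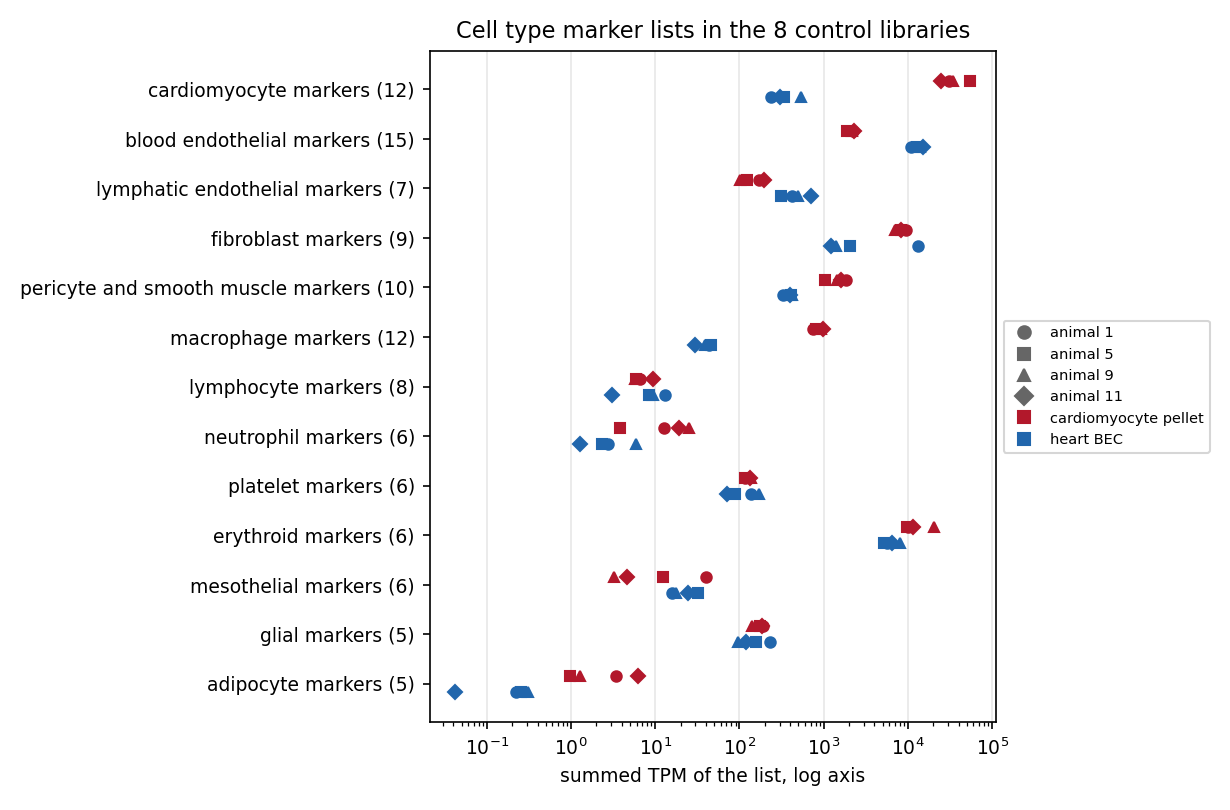
Summed TPM (log x axis) of the cell type marker lists in each of the 8 control libraries, with the number of genes in brackets, a symbol per animal and a colour per population. Macrophage sums lie at 750 to 977 TPM in the pellets and 30.0 to 45.5 TPM in BECs, and the fibroblast sum of the BEC library of animal 1 (13327 TPM) lies apart from those of the other 3.

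Endothelial transcripts in the pellet could be set against their level in the sorted endothelium of the same animal. All 15 blood endothelial markers were higher in BECs, and their sum was 1881 to 2282 TPM in the pellets and 10879 to 15296 TPM in BECs. Per gene, the pellet held a median of 19.8%, 13.9%, 15.7% and 15.2% of the BEC level of the same animal. The highest share was 27.7% (Kdr, animal 1) and the lowest 4.96% (Vwf, animal 5), and Vwf was the lowest of the 15 genes in every animal. With mitochondrial genes and their look-alikes left out of the total, the medians were 33.7%, 21.4%, 26.0% and 27.4%. Fewer endothelial cells and less RNA per cell cannot be told apart in these bulk libraries.

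The reverse signal was smaller for most genes. The 12 cardiomyocyte markers, all higher in cardiomyocytes, summed to 24993 to 55332 TPM in the pellets and 239 to 537 TPM in BECs, and per gene a BEC library held a median of 1.75%, 1.57%, 1.95% and 1.54% of the pellet level. Within that list the range was wide, from 0.01% to 0.06% for Nppa to 8.56% to 31.9% for Ryr2. Ventricular genes in BECs were at a median of 4.97%, 7.33%, 6.08% and 2.61% of the pellet level and atrial genes at 0.04%, 0.12%, 0.36% and 0.21%, with Hey2 and Nr2f1, which are near or above the pellet level in some BEC libraries, within those lists. The chamber genes of muscle in the BEC libraries were thus in other proportions than in the pellets of the same hearts.

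Lymphatic markers were low in both. Their sum was 101 to 198 TPM in the pellets and 309 to 708 TPM in BECs, against 22833 to 32106 TPM in the lymphatic endothelial libraries of the same 4 hearts. Of the 7 genes 3 were higher in BECs, among them Ccl21a (log2 difference -1.72, SE 0.22). Prox1, whose reporter was gated against, was at 5.87, 6.18, 4.68 and 3.04 TPM in the pellets and 5.70, 5.30, 2.64 and 4.65 TPM in BECs (log2 difference 0.09, SE 0.23).

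Immediate early and heat shock genes, which rise when tissue is dissociated, were higher in the sorted cells. Of 12 such genes, 11 were higher in BECs, with a median log2 difference of -1.90. Fos was at 9034, 9253, 8857 and 10761 TPM in BECs and 2902, 2211, 2419 and 2644 TPM in cardiomyocytes (log2 difference -1.90, SE 0.13, limma adjusted p = 7.08e-06), Hspa1b, a heat shock protein, differed by -2.01 (SE 0.18) and Junb by -1.48 (SE 0.14). Their summed level was 41417 to 48846 TPM in BECs and 10384 to 14782.5 TPM in the pellets, and its part in the other differences was not tested.

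The same comparison was made in 8 treated animals, 5 given angII and 3 given angII with VEGFC, which share no library with the control comparison. Per the labels, the angII animals 3, 12, 14, 15 and 18 were 8, 16, 14, 14 and 16 months old. The angII+VEGFC animals 2, 6 and 8 were 15, 8 and 8 months old, with the same doubt about the unit. Of the 1685 genes higher in control cardiomyocytes, 1274 (75.6%) were higher in cardiomyocytes in every one of the 8 treated animals, against 10.2% of all genes tested. Of the 3560 genes higher in control BECs, 2996 (84.2%) were higher in BECs in all 8, against 49.7% of all genes. The log2 difference of Myh6 was 7.51 in treated animals, that of Tnni3 6.04 and that of Pecam1 -2.58. Myl7 remained more abundant than Myl2 in some treated pellets only, as the ratio ran from 0.66 to 4.44 with a median of 2.02.

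A test of whether the difference between the populations itself differed between treated and control animals called 49 of 15327 genes, 43 with a more positive and 6 with a more negative value in treated animals. Genes named above were among them in 3 cases. Lpl changed from a log2 difference of 0.23 in control to -1.12 in treated animals (difference -1.35, limma adjusted p = 0.0376), Kcnh2 from 4.60 to 3.15 (-1.45, limma adjusted p = 0.0376) and Sparc, a matrix protein of the basement membrane list, from -1.34 to -0.43 (0.92, limma adjusted p = 0.0417). For Nppa (11.40 and 9.75), Myl7 (9.59 and 7.74) and Sln (9.05 and 6.95) the change did not pass the test, with limma adjusted p-values of 0.169, 0.160 and 0.0918. These calls rested on few animals, since leaving out 1 control animal left 0 calls for animals 1, 5 and 9, and 9 for animal 11.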

How the data were processed

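Libraries were made from total RNA of each population with a Smart-Seq ultra low input kit and Nextera XT, which do not keep the strand. Per the submitters' processing notes and the study's methods, reads were aligned with STAR 2.5.3a to GRCm38 and quantified with Salmon 0.12.0 against Ensembl transcripts. The authors deposited TPM values summed per gene for 54752 genes, 54723 of them with a symbol, in 48 columns that each name 1 sample. TPM adds up to the same total in every library, so depth is unknown and no counting error could be given. No 2 libraries held identical values.

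Groups came from the labels of cell type, treatment and animal. A gene was tested where 4 or more of the 8 control libraries reached 1 TPM, and the test was made on log2(TPM + 1) with limma 3.58.1 in R 4.3.3, with animal as a block, a variance trend and Benjamini-Hochberg adjustment (threshold 0.05). A log2 difference on this scale understates that of low genes. Treated animals were fitted likewise on the same genes. The difference between treated and control was fitted on 1 value per animal (4 control, 8 treated), with no term for age. Pairs of libraries came from the same animal by its label. Deviations of an animal's 2 libraries from their group means correlated at 0.055, 0.149, 0.169 and -0.122 for animals 1, 5, 9 and 11. Between libraries of different animals these correlations ran from -0.157 to 0.108. The 2 ranges overlapped, so the pairing rests on the label.

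Genes were named by rule: the 3 markers, the 10 genes per direction with the largest log2 difference (called, without overlap, at least 10 TPM in the higher population; predicted genes, pseudogenes and mitochondrial tRNAs aside), the most abundant members of each list with those that went the other way, and the gene pairs. Genes outside it, such as Irx4, Hey2, Srf, Myocd, Ndufa8, Nr2f1, Ms4a1, Cd79a, Nkg7 and those named for a promoter match, were named after their values were seen. Some list members are counted but not reported here by name. Members and lists were chosen with earlier results of these data known, so counts per list are descriptions. The 12 look-alikes were found with BLAST+ 2.17.0 (90% identity over 80% of the transcript). The fits were tested on simulated data. Tables and figures were made with Python 3.11.15, numpy 2.4.6, pandas 2.3.3 and matplotlib 3.10.9. Alternatives in the pseudocount, the filter, the scaling, the block and the animals are reported in the closing section.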

Additional observations from a re-analysis of the deposited data

Results flagged for a closer look

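In 430 groups of 4 libraries, the highest or lowest value stood far from the other 3 by Dixon's criterion in 27, and chance alone gives about 1 in 20. The BEC library of animal 1 held 11 of these for genes, at 1.57 TPM of Chad, 4.03 TPM of Ttn, 2.57 TPM of Tbx5, 3.49 TPM of Angpt1, 5.99 TPM of Nr2f1, 29.4 TPM of Igf1, 3024 TPM of Dcn, 9158 TPM of Gsn and 53.3 TPM of Col1a1, all above the other BEC libraries, and 110.4 TPM of Cdh5 and 247 TPM of Mdh2, both below them. Its summed fibroblast markers of 13327 TPM stood apart as well. The BEC library of animal 9 was high for Tnnt2 (69.8 TPM), Atp5g1 (414 TPM), Cox6c (830.3 TPM) and Cox7a2 (517 TPM) and S100a8 (3.57 TPM), and that of animal 5 for Vegfa (55.1 TPM).

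Among the cardiomyocyte libraries, animal 5 was high for Idh2 (428 TPM), Aldoa (1435 TPM) and Ppargc1a (16.3 TPM). Animal 9 was high for Edn1 (13.2 TPM), for the globin genes Hba-a2 (8990.3 TPM) and Hbb-bs (7012.5 TPM) and for summed erythroid markers (20378 TPM). Animal 11 was high for Csf1r (35.4 TPM) and animal 1 for the platelet integrin gene Itga2b (4.40 TPM).

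The difference between the populations differed between treated and control animals, by the test of that difference, for Kcnh2 (-1.45 on the log2 scale, limma adjusted p = 0.0376), Lpl (-1.35, 0.0376) and Sparc (0.92, 0.0417). With a pseudocount of 0.1, without a filter or without control animal 1, 5 or 9, this test called 0 genes, so none of the 3 calls held there.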

How the results depend on the processing

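Counts of called genes on TPM (12354, with 1685 higher in cardiomyocytes and 10669 in BECs) depended most on the scaling. Quantile normalization gave 8111 (3400 and 4711), median-of-ratios scaling 7468 (3908 and 3560), leaving out mitochondrial genes and their look-alikes, an alternative chosen after seeing the data, 2860 and 5821, and leaving out genes above 5000 TPM 2920 and 5768. In treated animals (12261, with 2141 and 10120), quantile normalization gave 3959 and 5593, and the 3 angII+VEGFC animals alone 7460 (1240 and 6220). Other filters, a pseudocount of 0.1 and leaving out mitochondrial genes alone (10626) kept both control counts within 1.5 times, as did leaving out 1 animal (11137 to 12048) and the animals of BEC batch 1 (10839) or batch 2 (10944) alone. Without the animal block the count was 12246, so the pairing by replicate block moved it little, and 177 of 181 named genes kept their call (Fkbp1b, Fgfr1 and S100a8 lost it and Nkg7 gained one). The 49 genes with a treated minus control difference (43 and 6, 1809 at an unadjusted p under 0.05 with limma) became 0, 0 and 0 with a pseudocount of 0.1 and without a filter, 30 (15 and 15) with quantile normalization, and 0 to 9 (positive 0 to 9, negative 0 to 0) without 1 control animal. Of the named genes, 153 kept their call, or the lack of one, under every one of the 15 alternatives in which they were fitted. With genes above 5000 TPM left out, 168 of the 181 were fitted. Direction turned for 6 of the named genes, where a turn counted only if the main or the alternative fit called the gene. Changes of sign in genes called in neither fit were not counted. Camk2d gave 0.48 (quantile), 0.61 (median-of-ratios), 0.30 without mitochondrial genes and look-alikes and 0.31 without genes above 5000 TPM. Fkbp1b gave 0.085, 0.25, 0.0021 and 0.012 in that order. Nr2f2 gave 0.76 (quantile), 0.90 (median-of-ratios) and 0.64 without genes above 5000 TPM. With median-of-ratios scaling Nr4a1 (0.11), Ptprc (0.69) and Srf (0.74) turned. For the counts the cause was not tested. Depth is unknown, so low values cannot be given a counting limit.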
